A study of Homo sapiens with 46 samples.

Results

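Complex I, the NADH dehydrogenase of the mitochondrial respiratory chain, has 7 subunits encoded in mitochondrial DNA: MT-ND1, MT-ND2, MT-ND3, MT-ND4, MT-ND4L, MT-ND5 and MT-ND6. These 7 genes were taken by symbol from the 4 count tables built on each cell type's own transcript assembly. All 7 were listed in every table, each as 1 transcript, among 21183 genes in all (13922 genes in the endoderm table to 18523 in the ectoderm table). All 7 passed the filter on low counts in every comparison below.

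RNA was sequenced from 46 libraries of H1, a line of human pluripotent stem cells (hPSC), and of 3 cell types made from it in culture. The hPSC were kept on Matrigel in mTeSR1. Ectoderm was made with A83-01, PNU-74654 and Dorsomorphin, endoderm with WNT3A and Activin A, and mesoderm with VEGF, BMP4, bFGF and, at the start, Activin A. The growth protocol gives collection after 5 days in its passage on ectoderm. Each cell type was split by detergent lysis and centrifugation into cytoplasm, the supernatant over a sucrose cushion, and a nuclear pellet, the nucleus fraction. Part of the pellet was divided further into nucleoplasm, its soluble part, and chromatin. The columns of the nucleus libraries carry the code Nei, which the labels do not explain. It was read as nucleus because the other codes leave only that fraction. All lysis buffers held α-amanitin, an inhibitor of nuclear RNA polymerase II. No step named in the labels separates mitochondria from any fraction. The series text mentions actinomycin D, but no sample label names it. There were 3 libraries per group, except mesoderm nucleoplasm with 1. All groups come from 1 line, and the labels do not say that replicates were separate cultures, so p-values measure the spread between these libraries, which may be technical.

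Mitochondrial DNA is transcribed within the organelle by its own polymerase, as long precursors from both strands. The transfer RNAs that lie between most genes are cut out of these precursors, which frees the mRNAs, and a poly(A) tail is added. The subunits encoded there form the membrane arm of complex I. MT-ND1 sits where ubiquinone binds, MT-ND2, MT-ND4 and MT-ND5 are the antiporter-like proton-pumping subunits, and MT-ND3, MT-ND4L and MT-ND6 are small membrane subunits between them. MT-ND4L and MT-ND4 are carried on the same mRNA, and MT-ND6 is the only protein-coding gene read from the other strand. Pluripotent cells are known for a reliance on glycolysis, and respiration is known to rise in many cells that differentiate.

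All 7 genes lie on the mitochondrial chromosome, here in GRCh38 coordinates from GENCODE release 29, each as a single exon without annotated UTR. MT-ND1 spans chrM:3307-4262 (956 nt), MT-ND2 chrM:4470-5511 (1042 nt) and MT-ND3 chrM:10059-10404 (346 nt). MT-ND4L spans chrM:10470-10766 (297 nt), MT-ND4 chrM:10760-12137 (1378 nt) and MT-ND5 chrM:12337-14148 (1812 nt). MT-ND6 spans chrM:14149-14673 (525 nt) on the opposite strand. MT-ND4L and MT-ND4 share 7 bases, which are in capitals here because the start of 1 reading frame lies inside the end of the other:
end of MT-ND4L: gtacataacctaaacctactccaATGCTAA
start of MT-ND4: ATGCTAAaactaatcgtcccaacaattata

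The lengths of MT-ND1, MT-ND2, MT-ND3 and MT-ND4 are not multiples of 3, and their last bases hold a stop codon that is completed by the poly(A) tail. These ends are shown because the tail, and not the gene, supplies the rest of the codon. The incomplete codon is in capitals, as is the AGG stop codon of MT-ND6, shown for contrast:
end of MT-ND1: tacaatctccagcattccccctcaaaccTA
end of MT-ND2: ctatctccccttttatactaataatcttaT
end of MT-ND3: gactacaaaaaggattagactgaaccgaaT
end of MT-ND4: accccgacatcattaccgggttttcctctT
end of MT-ND6: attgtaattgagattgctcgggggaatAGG
MT-ND6 also differs in base composition: G makes up 35.6% of its transcript, against 9.5% to 12.1% in the other 6. MT-ND5 and MT-ND6 meet end to end with 0 bases between them. The labels state no use of strand in library preparation or counting, so reads of MT-ND6 and of the RNA opposite to it cannot be told apart.

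The library totals ran from 4990408 to 21298678 counts. Marker genes fitted the cell type labels unevenly. POU5F1, a pluripotency factor, had a median of 1186 CPM (counts scaled to the library total) over the hPSC libraries and 3.78 in ectoderm, but 369 in endoderm and 374 in mesoderm. PAX6 (164 CPM) marked ectoderm, as did OTX2 (152) and LHX2 (116). NR2F1 was at 5.12 CPM and ZIC1 at 0.329 there, and SOX1 was not listed. SOX2, taken as a pluripotency marker, had 432 CPM in ectoderm against 293 in hPSC, and LIN28A 1330 against 1731. DPPA4 (137 against 734) and TDGF1 (0 against 639) were also lower in ectoderm, and NANOG was not listed there. SOX17 (91.7 CPM) marked endoderm. In mesoderm HAND1 had 38.1 CPM, while TBXT was at 0.123 CPM and MIXL1, MESP1 and KDR were not listed in the table. The 6 mesoderm markers summed to 38.2 to 45.5 CPM in the mesoderm nucleus but to 391 to 465 in the hPSC nucleus, mostly KDR, and to 158 to 218 in the endoderm nucleus. By this sum the markers do not set mesoderm apart. The fraction labels were also borne out unevenly. MALAT1, a nuclear RNA, ran from 227 to 445 CPM in the mesoderm nucleus and 156 to 187 in the mesoderm cytoplasm, but from 34.2 to 304 in the ectoderm nucleus and 1112 to 2179 in the ectoderm cytoplasm. In hPSC it ran from 74.1 to 95.7 in nucleus and from 208 to 252 in cytoplasm. In endoderm it ran from 29 to 275 in nucleus and 93.4 to 170.5 in cytoplasm. MALAT1 in nucleoplasm ran from 587 to 1029 CPM in hPSC, 1764 to 2114 in ectoderm and 752 to 1081 in endoderm. On chromatin it ran from 94.9 to 167, 576 to 879 and 413 to 483, in the same order. Each of these nucleoplasm ranges lay above the nucleus range of its cell type, as did chromatin in ectoderm and endoderm. In endoderm the nuclear control RNAs together summed to 514 to 712 CPM in cytoplasm, above all of the nucleus libraries, of which the highest summed to 496 CPM. Of 5 abundant cytoplasmic mRNAs, 5 were higher in cytoplasm in hPSC, 5 in mesoderm, 3 in endoderm and 0 in ectoderm, where 3 were lower. The fractions are therefore named here as the labels name them.

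The 7 mRNAs together made up a large and variable part of the counts. Their summed share of a library was 3.5% ± 0.313 in the hPSC nucleus (mean ± SD, n = 3, as for the shares that follow), 2.93% ± 0.273 in nucleoplasm, 1.27% ± 0.183 on chromatin and 0.107% ± 0.0267 in cytoplasm. In ectoderm the nucleus held 2.55% ± 0.47 and the cytoplasm 0.322% ± 0.104, and in endoderm 3.23% ± 1.35 and 0.103% ± 0.00367. Mesoderm had the opposite order, with 0.368% ± 0.0478 in the nucleus and 1.51% ± 0.265 in the cytoplasm. In mesoderm chromatin the share was 0.585% ± 0.612, and replicate 3 was the highest of the 3 libraries in every member. In bulk libraries, fewer cells of a type, fewer mitochondria in a fraction and less of an RNA per cell or mitochondrion cannot be told apart. The 7 mRNAs made up 20.6% (hPSC cytoplasm) to 30.1% (endoderm nucleoplasm) of all counts of mitochondrial genes, as group means.

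**Figure D1:**
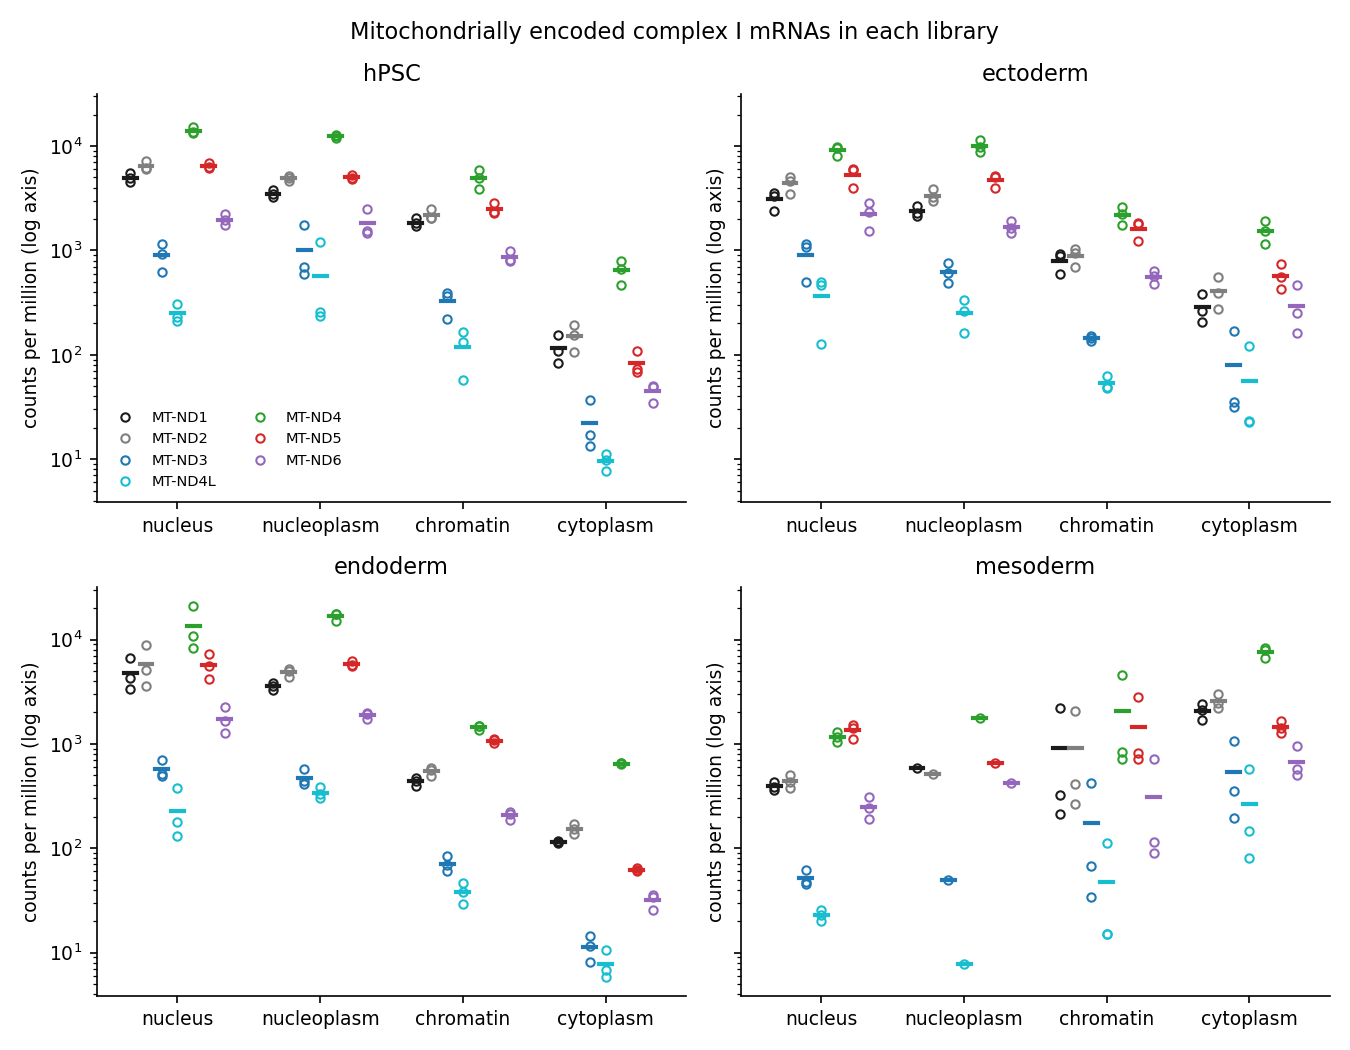
CPM on a log axis, with 1 panel per cell type and the 4 fractions along the x axis. Each open circle is a library and each bar a group mean; the 7 colours are the 7 genes. By group mean MT-ND4L lies lowest in every group and MT-ND4 highest in every group but mesoderm nucleus, where MT-ND5 does; in mesoderm the cytoplasm libraries lie above the nucleus libraries for every gene but MT-ND5.

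Levels of different genes were compared per length, in the authors' TPM, a unit normalised for transcript length and library. MT-ND5, the longest of the 7, had the lowest mean TPM in 14 of the 16 groups. MT-ND3 had the highest in 8 groups, MT-ND4L in 4, MT-ND4 in 3 and MT-ND6 in 1, the single mesoderm nucleoplasm library. The ranks of MT-ND3 and MT-ND4L, the shortest genes, rest on division by small effective lengths, which are explained below. In 43 of the libraries these were 34.1 to 79.7 nt for MT-ND3 and 11.5 to 37.4 nt for MT-ND4L. In the hPSC nucleus the order ran from MT-ND3 (28161 ± 4982 TPM, mean ± SD, n = 3) through MT-ND4L, MT-ND4 (17637 ± 1307), MT-ND6 (12608 ± 1245), MT-ND2 and MT-ND1 (10322 ± 1062) to MT-ND5 (5725 ± 317). Neighbours in that order overlapped in 4 of the 6 steps, and the step from MT-ND1 down to MT-ND5 was free of overlap. The highest mean was 4.92 times the lowest in the hPSC nucleus, 10.5 times in the hPSC cytoplasm and 14.7 times in the endoderm cytoplasm. In the mesoderm nucleus it was 2.17 times, and all 6 pairs of neighbours overlapped there.

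Cytoplasm against nucleus asks in which of these fractions each mRNA takes the larger share. All 7 mRNAs were lower in cytoplasm in hPSC, ectoderm and endoderm, by 21.9-fold for MT-ND4 in hPSC and 6.03-fold in ectoderm, as ratios of mean CPM. In mesoderm 6 of the 7 were higher in cytoplasm instead. MT-ND5, the pump subunit at the far end of the membrane arm, was the member that did not pass there.

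MT-ND4, an antiporter-like subunit, had 13547, 13216 and 15391 CPM in the 3 hPSC nucleus libraries and 795, 471 and 661 CPM in the 3 hPSC cytoplasm libraries. No library overlapped, and the log2 change was -4.52 (SE 0.24, adjusted p 2.13e-09) in edgeR. The change of MT-ND4 was the smallest of the 7 here, and also in ectoderm and endoderm. MT-ND5 had 6296, 6102 and 6889 CPM in the hPSC nucleus and 73.2, 69.1 and 108 CPM in the cytoplasm. Its log2 change of -6.34 (SE 0.21, adjusted p 1.86e-10) was the largest of the 7 in hPSC. MT-ND6, from the other strand, had 1744, 1964 and 2214 CPM in nucleus and 49.8, 34.6 and 49 CPM in cytoplasm. Its log2 change was -5.55 (SE 0.26, adjusted p 8.08e-10), close to those of MT-ND1 (-5.49), MT-ND2 (-5.48) and MT-ND3 (-5.42), with MT-ND4L at -4.81. In hPSC, 30.3% of the 14160 genes tested were called lower in cytoplasm (edgeR quasi-likelihood test, Benjamini-Hochberg adjusted p under 0.05, the rule used throughout), against 7 of 7 members. The members' median log2 change was -5.48 and that of all genes 0.10.

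In ectoderm MT-ND5 had 3927, 5910.2 and 5962 CPM in the nucleus and 561, 425 and 733 CPM in the cytoplasm. The libraries of the fractions were apart, and the log2 change was -3.58 (SE 0.27, adjusted p 2.35e-07). MT-ND4 had 8105, 9777 and 9649 CPM in nucleus and 1532, 1141 and 1895 CPM in cytoplasm, a log2 change of -2.96 (SE 0.23, adjusted p 3.04e-07). MT-ND4L, the small subunit on the MT-ND4 mRNA, had 127, 502 and 464 CPM in nucleus and 23.2, 22.7 and 121 CPM in cytoplasm. The cytoplasm replicate 3 value of MT-ND4L came close to the lowest nucleus library, and its log2 change was -3.13 (SE 0.65, adjusted p 0.00136). The 7 changes ran from -3.91 to -2.96, and 26.5% of 15992 genes were called lower in cytoplasm in ectoderm. In ectoderm the controls of the fractions did not follow the labels: 4 of 5 nuclear RNAs were higher in cytoplasm. The part of this in the members' values was not tested.

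In endoderm MT-ND5 had 7274, 4221 and 5610.2 CPM in nucleus and 64.8, 61.2 and 60.1 CPM in cytoplasm. Its log2 change of -7.30 (SE 0.36, adjusted p 6.62e-10) in edgeR was the largest of the 7. The ratio of mean CPM, nucleus over cytoplasm, was 91.9-fold. CPM uses library totals and not the TMM scaling of edgeR, so the ratio and the log2 change differ in size. MT-ND4 had 21161, 8246 and 10921 CPM in nucleus and 653, 652 and 640.2 CPM in cytoplasm, which is -5.21 (SE 0.44, adjusted p 9.11e-08) on the log2 scale. Each of the 2 varied little over the cytoplasm libraries, while the nucleus libraries spread widely with replicate 1 highest. The 7 changes ran from -7.30 to -5.21, and 35.4% of 12812 genes were called lower in cytoplasm. Of the 4 nuclear control RNAs tested in endoderm, 1 was higher in cytoplasm and 2 were lower, and their part in the members' values was not tested.

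In mesoderm MT-ND4 had 1032, 1167 and 1306 CPM in nucleus and 6652, 8213 and 7908 CPM in cytoplasm. Each cytoplasm library was above each nucleus library, and the log2 change was 2.81 (SE 0.62, adjusted p 0.00204). MT-ND2 (log2 change 2.66, SE 0.62, adjusted p 0.00299) and MT-ND1 (2.51, SE 0.69, adjusted p 0.00782) rose in cytoplasm by a like amount. The small subunits MT-ND3 (3.52, SE 0.87, adjusted p 0.00428) and MT-ND4L (3.67, SE 0.86, adjusted p 0.00322) rose as well. Cytoplasm replicate 2 was a library of short fragments, as set out below. The log2 ratio of MT-ND4L to MT-ND4 in CPM was -3.84 there, against -6.37 and -5.75 in cytoplasm replicates 1 and 3. On log2(TPM + 1) limma gave 1.59 for MT-ND3 and 1.37 for MT-ND4L, beside 1.64 for MT-ND4. MT-ND6 had 1.58 (SE 0.64, adjusted p 0.0492) in edgeR, just inside the threshold. MT-ND5 had 1124, 1432 and 1524 CPM in nucleus and 1277, 1639.9 and 1410.0 CPM in cytoplasm. These libraries overlapped, and its log2 change was 0.20 (SE 0.43, adjusted p 0.702). In mesoderm 31.8% of 14547 genes were called higher in cytoplasm, and the median over all genes was 0.00.

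The errors in this fit depended on mesoderm chromatin replicate 3, which shares its estimate of the spread. Without it, in an alternative added after the data were seen, 6 members were again called, with smaller errors: MT-ND4 at 2.81 (SE 0.22, adjusted p 7.36e-07), MT-ND6 at 1.58 (SE 0.25, adjusted p 1.50e-04) and MT-ND5 at 0.20 (SE 0.18, adjusted p 0.339). On log2(TPM + 1), which changes the unit and the test together and where the median change of all mesoderm genes was -0.91, limma called 3 members higher, and without chromatin replicate 3 it called 5 higher and MT-ND5 lower, at -0.96 (SE 0.28, adjusted p 0.00584).

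**Figure D2:**
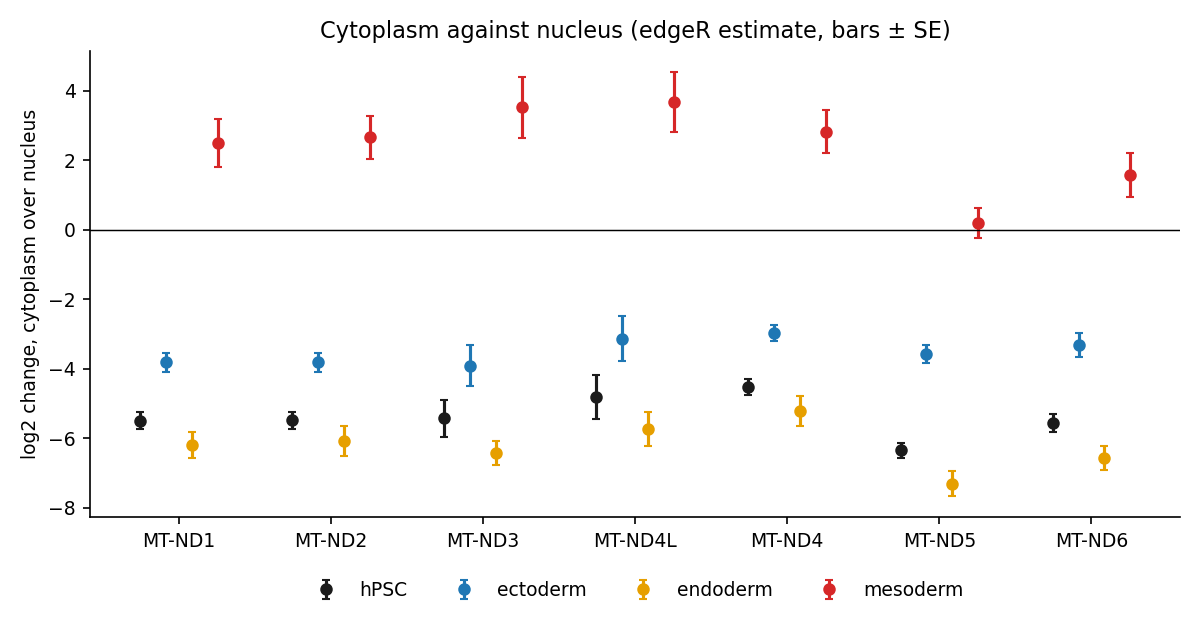
Log2 change of cytoplasm over nucleus for each of the 7 genes, with points for the edgeR estimate, bars of 1 SE either side and colours for the 4 cell types. hPSC, ectoderm and endoderm lie below 0 for all 7 genes with endoderm lowest, and mesoderm lies above 0 with MT-ND5 at 0.20.

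The difference between cell types in this change was tested as an interaction, over the genes present in all 4 tables. Mesoderm differed from hPSC in all 7 members, by 6.62 to 9.03 on the log2 scale, with 18.5% of 10687 genes called in that direction and a median of 0.18 over all genes. Ectoderm differed from hPSC in 5 members, all less depleted in cytoplasm, with 26.3% of all genes called in that direction. MT-ND5 had the largest of these ectoderm differences, 2.90 (SE 0.41, adjusted p 9.87e-06), and MT-ND6 followed with 2.37 (SE 0.51, adjusted p 6.19e-04). MT-ND3 (1.65, SE 0.83, adjusted p 0.0979) and MT-ND4L (1.81, SE 0.96, adjusted p 0.116) did not pass. For endoderm 0 of 7 passed in edgeR, where 38.5% of all genes were called in either direction. Of these 7, 1 had an unadjusted p under 0.05, and DESeq2 called 1. Without endoderm nucleus replicate 2, edgeR called 2.

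The parts of the nuclear pellet, chromatin and nucleoplasm, were set against each other to see which held more of each mRNA. All 7 mRNAs were lower on chromatin in hPSC, ectoderm and endoderm. MT-ND5 had 4825, 5293 and 4934 CPM in hPSC nucleoplasm and 2848, 2305 and 2322 CPM on chromatin, a log2 change of -1.24 (SE 0.17, adjusted p 3.69e-04). In endoderm MT-ND5 went from 6249, 5546 and 5745 CPM to 1104, 1023 and 1099.5 CPM, a log2 change of -3.02 (SE 0.29, adjusted p 7.76e-07). MT-ND4 fell most among the 7 in endoderm, from 17395, 15078 and 17634 CPM to 1490.0, 1358 and 1483 CPM, a log2 change of -4.11 (SE 0.42, adjusted p 1.31e-06). Over the 7 members the changes were -2.50 to -1.16 for hPSC, -2.53 to -1.85 for ectoderm and -4.11 to -3.02 for endoderm. The largest hPSC change was that of MT-ND4L, and its value depended on nucleoplasm replicate 2, a library of short fragments. Without that library MT-ND4L was at -1.27 (SE 0.33, adjusted p 0.0187), and on TPM at -1.13 (adjusted p 0.00107). Among all genes 13.3% were called lower on chromatin in hPSC, against 25.7% in ectoderm and 30.6% in endoderm. The single mesoderm nucleoplasm library gave MT-ND1 at 585 CPM, MT-ND4 at 1758, MT-ND5 at 651 and MT-ND6 at 421, with no replicate check.

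Chromatin held more of the members than cytoplasm in hPSC and endoderm, 7 of 7 in each, while ectoderm called 3 higher and mesoderm 3 lower. In hPSC the log2 changes ran from 2.79 to 4.76, against 35.2% of genes called higher on chromatin, and in endoderm from 1.31 to 4.27, against 37.7%. MT-ND5 had the largest change and MT-ND4 the smallest in both. In ectoderm MT-ND1 (1.16, SE 0.25, adjusted p 0.00126), MT-ND2 (0.82, SE 0.25, adjusted p 0.0124) and MT-ND5 (1.17, SE 0.24, adjusted p 9.87e-04) were higher on chromatin, against 29% of genes. MT-ND4 had 2625, 1733 and 2257 CPM on ectoderm chromatin and 1532, 1141 and 1895 CPM in cytoplasm, a log2 change of 0.22 (SE 0.21, adjusted p 0.39) that did not pass. This ectoderm count depended on the settings. With library totals in place of TMM, 5 members were called. With limma on log2(TPM + 1), which changes unit and test together, all 7 were called higher, and MT-ND4L went from -0.37 (SE 0.61, adjusted p 0.614) to 1.68 (adjusted p 1.81e-05). Without ectoderm cytoplasm replicate 3, 5 members were called.

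In mesoderm MT-ND4 had 832, 719 and 4599.6 CPM on chromatin, against the 6652, 8213 and 7908 CPM of the cytoplasm. Chromatin replicate 3 stood above the other 2 chromatin libraries in all 7 members, with MT-ND1 at 326, 215 and 2184 CPM and MT-ND5 at 722, 819.7 and 2801 CPM. With all libraries, MT-ND2 (-1.69, SE 0.60, adjusted p 0.0266), MT-ND4 (-2.09, SE 0.60, adjusted p 0.00921) and MT-ND4L (-2.70, SE 0.83, adjusted p 0.0131) were lower on chromatin, where 32.4% of genes were called lower. Without replicate 3 of chromatin all 7 were lower, from -4.33 to -1.08 on the log2 scale, with MT-ND5 at -1.08 (SE 0.21, adjusted p 6.55e-04). Without replicate 2 of the mesoderm cytoplasm, 1 member was called.

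Nucleoplasm exceeded cytoplasm for 7 of 7 members in hPSC (4.36 to 6.01 on the log2 scale, against 27.3% of genes called higher), ectoderm (2.16 to 3.03, 17%) and endoderm (5.42 to 7.30, 32.1%). In hPSC and endoderm MT-ND5 had the largest change, with 6.01 (SE 0.21) and 7.30 (SE 0.36), and in hPSC MT-ND4L lay beside it. In ectoderm its change of 3.02 (SE 0.26) lay beside those of MT-ND1 (3.03) and MT-ND2 (3.02). These comparisons share their cytoplasm libraries with those above.

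Each differentiated cell type was set against hPSC within 1 fraction at a time. In cytoplasm all 7 mRNAs were higher in ectoderm and in mesoderm than in hPSC, and 1 was lower in endoderm. In the nucleus all 7 were lower in mesoderm, and none was called in ectoderm or endoderm. On chromatin 6 were lower in endoderm. Each cell type was counted on its own assembly, and a difference between assemblies cannot be told apart from one between cell types.

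MT-ND5 had 73.2, 69.1 and 108 CPM in the hPSC cytoplasm, 561, 425 and 733 in ectoderm and 1277, 1639.9 and 1410.0 in mesoderm. The log2 changes of MT-ND5 were 2.72 (SE 0.19, adjusted p 6.54e-09) in ectoderm and 4.07 (SE 0.20, adjusted p 3.36e-10) in mesoderm. Endoderm lay lower, with 64.8, 61.2 and 60.1 CPM and a log2 change of -0.64 (SE 0.18, adjusted p 0.00711), the 1 member called there. MT-ND6 had 49.8, 34.6 and 49 CPM in hPSC and 253, 160.4 and 470.2 in ectoderm, a log2 change of 2.66 (SE 0.33, adjusted p 2.87e-06). In ectoderm MT-ND1 was at 1.24, MT-ND2 at 1.37 and MT-ND4 at 1.18; differences between members within cytoplasm alone were not tested. The 7 changes in mesoderm ran from 3.52 to 4.81. Among all genes, 39% were called higher in ectoderm, 34.9% higher in mesoderm and 32.2% lower in endoderm. Endoderm MT-ND5 did not pass with library totals alone or on TPM. With 1 library left out at a time, 5 to 7 members were called in ectoderm.

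In the nucleus MT-ND4 had 13547, 13216 and 15391 CPM in hPSC and 1032, 1167 and 1306 in mesoderm, a log2 change of -3.75 (SE 0.42, adjusted p 6.78e-06). MT-ND5 had the smallest of the 7 mesoderm changes, -2.41 (SE 0.33, adjusted p 3.74e-05), and MT-ND3 the largest, -4.30 (SE 0.41, adjusted p 1.44e-06). Among all genes 27.9% were called lower in mesoderm. For ectoderm the 7 log2 changes in the nucleus ran from -0.59 to 0.66, and for endoderm from -0.22 to 0.43. In both, 0 of 7 passed in edgeR, 0 had an unadjusted p under 0.05, and DESeq2 called 0, while 57.6% and 57% of all genes were called in either direction. On log2(TPM + 1) limma called 4 members lower in ectoderm and 1 in endoderm, and without ectoderm nucleus replicate 1 edgeR called 1 in ectoderm.

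On chromatin MT-ND1 had 2028, 1699 and 1819.9 CPM in hPSC and 474, 444 and 393 in endoderm, a log2 change of -1.83 (SE 0.61, adjusted p 0.0179). The 6 members called lower in endoderm ran from -1.95 to -0.96, and MT-ND4L had -1.39 (SE 0.61, adjusted p 0.06). Among all genes 30.8% were called lower. This count was 2 without endoderm chromatin replicate 2 and 3 without endoderm chromatin replicate 3. The fit on chromatin holds the libraries of all 4 cell types, so mesoderm chromatin replicate 3 also enters the errors for endoderm and ectoderm. Those comparisons were not repeated without it. In mesoderm 0 of 7 passed in edgeR, with 3 at an unadjusted p under 0.05 and 54.3% of all genes called in either direction. DESeq2 called 0 of the 6 members other than MT-ND6, for which it gave no adjusted p, limma on log2(TPM + 1) called 4, and edgeR called 1 without hPSC chromatin replicate 3. Without mesoderm chromatin replicate 3 all 7 were lower, from -2.91 to -1.51, with MT-ND6 at -2.91 (SE 0.18, adjusted p 8.95e-08). In ectoderm 0 of 7 passed, with 1 at an unadjusted p under 0.05, and the 7 log2 changes ran from -1.24 to -0.56. There 62.4% of all genes were called in either direction, and DESeq2 called 0 of the 6 members with an adjusted p. Without hPSC chromatin replicate 3, 1 was called in ectoderm.

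**Figure D3:**
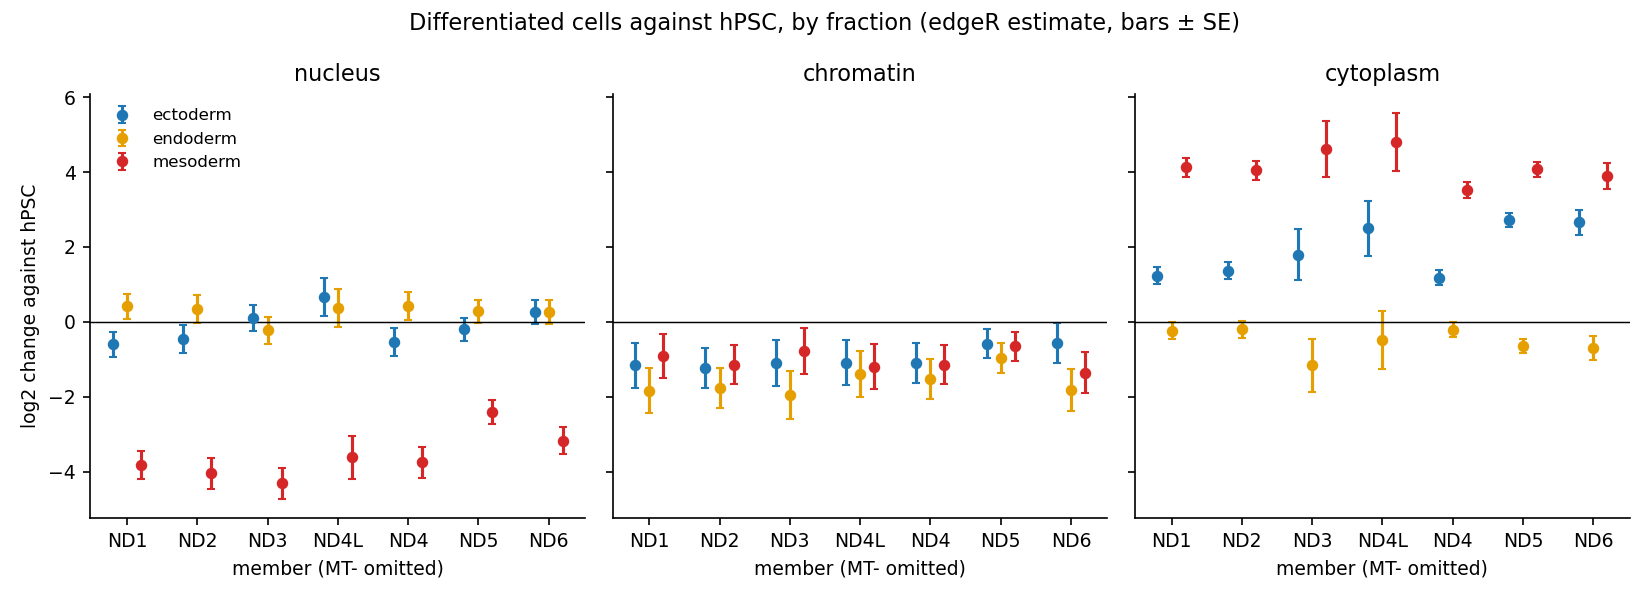
Log2 change of ectoderm, endoderm and mesoderm against hPSC for each gene, in the nucleus, on chromatin and in the cytoplasm, with edgeR estimates and bars of 1 SE either side. Mesoderm lies lowest in the nucleus and highest in the cytoplasm for all 7 genes, and ectoderm lies above 0 in the cytoplasm.

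The balance among the members was followed as the log2 ratio of each to MT-ND1 within a library, with 0.5 CPM added to both. The proton-pumping subunits MT-ND4 and MT-ND5 moved in opposite directions between cytoplasm and nucleus. MT-ND4 to MT-ND1 was higher in cytoplasm in each of the 4 cell types, and MT-ND5 to MT-ND1 was lower in hPSC, endoderm and mesoderm but not in ectoderm. MT-ND2 stayed near MT-ND1 between these fractions.

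In hPSC the log2 ratio of MT-ND4 to MT-ND1 was 1.59, 1.43 and 1.48 in the nucleus libraries and 2.35, 2.50 and 2.59 in cytoplasm. In mesoderm it was 1.52, 1.59 and 1.58 in nucleus and 1.99, 1.77 and 1.89 in cytoplasm. The groups did not overlap in any of the 4 cell types, and cytoplasm minus nucleus gave 0.98 for hPSC, 0.85 for ectoderm, 1.06 for endoderm and 0.32 for mesoderm. Over the 4 cell types the mean difference was 0.80 (adjusted p 1.12e-04), from an exact two-sided permutation test of libraries within each cell type over 160000 arrangements, adjusted over the 18 ratios and fraction pairs tested. For 1 cell type, 3 libraries against 3 cannot go below an exact p of 0.1.

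The log2 ratio of MT-ND5 to MT-ND1 was 1.64, 1.88 and 1.81 in the mesoderm nucleus and -0.39, -0.55 and -0.59 in the cytoplasm. MT-ND5 thus had more counts than MT-ND1 in the mesoderm nucleus and fewer in its cytoplasm. In hPSC the ratio was 0.48, 0.32 and 0.32 in nucleus and -1.09, -0.26 and -0.02 in cytoplasm, and in endoderm 0.12, 0.32 and 0.39 and -0.86, -0.89 and -0.90. Ectoderm went the other way, with 0.72, 0.73 and 0.84 in nucleus and 1.09, 1.04 and 0.92 in cytoplasm, and no overlap. Over the 4 cell types the mean difference of MT-ND5 to MT-ND1 was -1.01 (adjusted p 0.00309) by the exact permutation test. Without replicate 2 of every group MT-ND4 passed and MT-ND5 (-1.02, adjusted p 0.0556) did not. Whether a cell type differed from hPSC in such a change was tested afterwards by an exact permutation of libraries between cell types within each fraction. Of 18 such differences 0 passed after adjustment and 3 had an unadjusted p under 0.05, and ectoderm MT-ND5, at 1.09, had an exact p of 0.115. This test had only 400 arrangements, and a difference between cell types within a fraction widens its permuted values. The lack of a call therefore does not show that the changes were alike.

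Between cytoplasm and chromatin MT-ND4 and MT-ND5 moved as between cytoplasm and nucleus, with mean differences of 0.83 (adjusted p 1.12e-04) and -1.18 (adjusted p 7.50e-04) in the same exact permutation test. MT-ND2 to MT-ND1 was higher in cytoplasm than on chromatin by 0.17 (adjusted p 0.00855). These comparisons share their cytoplasm libraries. Between nucleus and chromatin 0 of the 6 ratios passed, with 0 at an unadjusted p under 0.05 (1 passed without mesoderm), and the mean differences ran from -0.18 to 0.09. MT-ND6 to MT-ND1 had a mean difference of -0.24 (adjusted p 0.247) between cytoplasm and nucleus, which did not pass. In mesoderm alone MT-ND6 to MT-ND1 was -0.93, -0.66 and -0.50 in nucleus and -1.75, -1.33 and -1.88 in cytoplasm, without overlap.

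**Figure D4:**
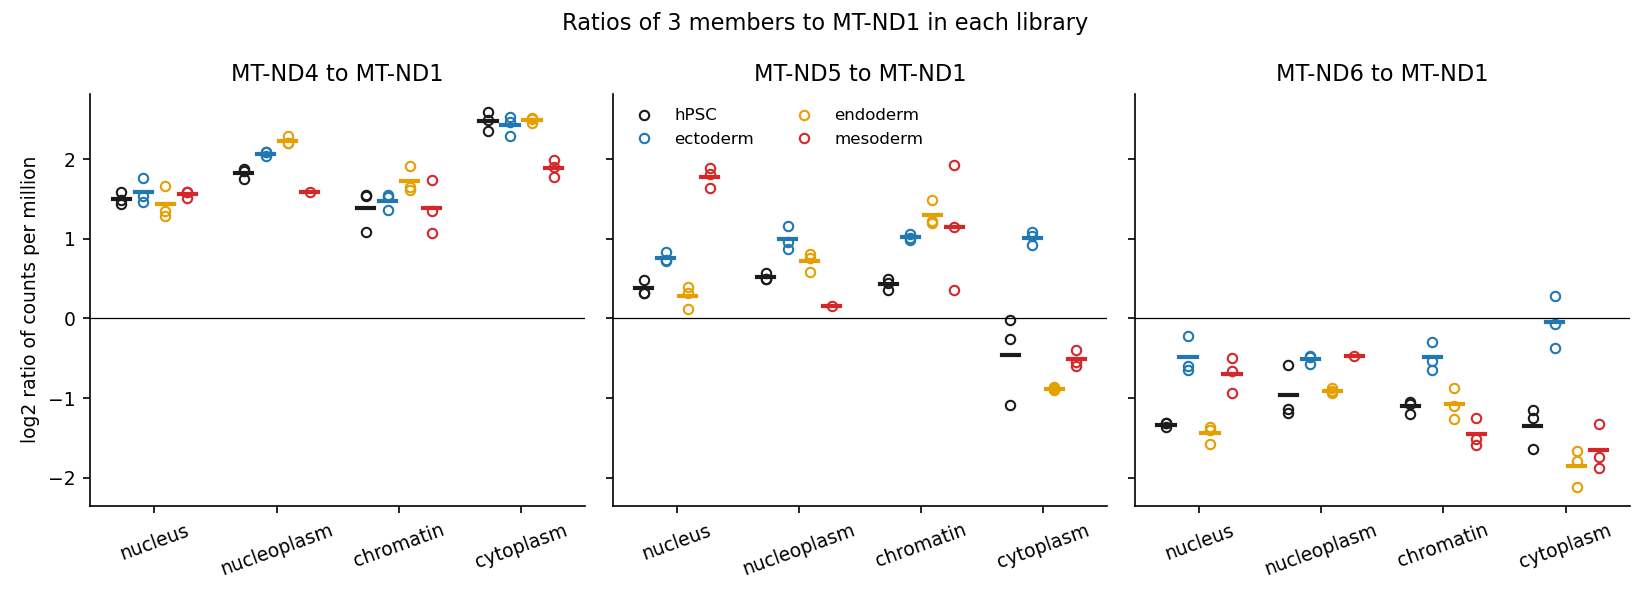
Log2 ratio of CPM of MT-ND4, MT-ND5 and MT-ND6 to MT-ND1 in each library (open circles), with group means as bars, by fraction along the x axis and cell type in colour. Within each cell type MT-ND4 is highest in the cytoplasm, MT-ND5 falls below 0 in the cytoplasm of hPSC, endoderm and mesoderm but not of ectoderm, and MT-ND6 is higher in ectoderm than in hPSC.

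The ratios also differed between cell types. Averaged over cytoplasm, nucleus and chromatin, MT-ND5 to MT-ND1 was higher in ectoderm than in hPSC by 0.82 (adjusted p 0.00225), and MT-ND6 to MT-ND1 by 0.92 (adjusted p 0.00225), in the exact permutation test over 8000 arrangements, adjusted over 18 tests. MT-ND6 to MT-ND1 was -1.37, -1.32 and -1.31 in the hPSC nucleus and -0.65, -0.59 and -0.23 in the ectoderm nucleus. In cytoplasm it was -1.63, -1.25 and -1.15 in hPSC and -0.06, -0.37 and 0.28 in ectoderm, where MT-ND6 came near the counts of MT-ND1. The other 4 ratios did not pass in ectoderm. In endoderm and mesoderm 0 of 6 ratios passed in each, with 1 at an unadjusted p under 0.05 in each: MT-ND3 in endoderm at -0.50 (adjusted p 0.0664) and MT-ND5 in mesoderm at 0.69 (adjusted p 0.0664). Without chromatin 2 ratios passed in endoderm. On the authors' TPM the MT-ND3 ratio in endoderm passed, at -0.52 (adjusted p 0.0045). Leaving out a replicate number in turn left 0 calls for ectoderm, where 216 arrangements limit the test.

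The counts of the shortest members moved with the length of the sequenced fragments. The ratio of the authors' counts to their TPM rose linearly with gene length over MT-ND1, MT-ND2, MT-ND4 and MT-ND5 in every library, which gives an implied mean fragment length. It was 205 to 227 nt in 3 libraries (hPSC nucleoplasm replicate 2, ectoderm cytoplasm replicate 3 and mesoderm cytoplasm replicate 2) and 268 to 332 nt in the other 43. MT-ND4L is 297 nt long, so its effective length, the number of positions at which a fragment can start, was 11.5 to 37.4 nt in those 43 and 76.3 to 92.4 nt in the 3. For MT-ND5 it was 1482 to 1546 and 1586 to 1609 nt.

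MT-ND4L and MT-ND4 come from the same mRNA, so their ratio was followed over these libraries. The log2 ratio of MT-ND4L to MT-ND4 in CPM was -3.97 to -3.40 in the 3 libraries and -7.81 to -4.28 in the other 43. In TPM it was -0.30 to 0.45 and -1.46 to 0.69, with the median of the 43 at 0.08. High CPM of MT-ND4L thus went with short fragments. In hPSC nucleoplasm MT-ND4L had 254, 1202 and 235 CPM but 17209, 20820.4 and 17901 TPM. The MT-ND4L to MT-ND1 ratio in cytoplasm exceeded that in nucleus by 0.65 (adjusted p 0.0292) in CPM in the exact permutation test, but by 0.21 (adjusted p 0.142) in TPM. Without the 3 libraries, an alternative added after the data were seen, it was 0.35 (adjusted p 0.142).

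**Figure D5:**
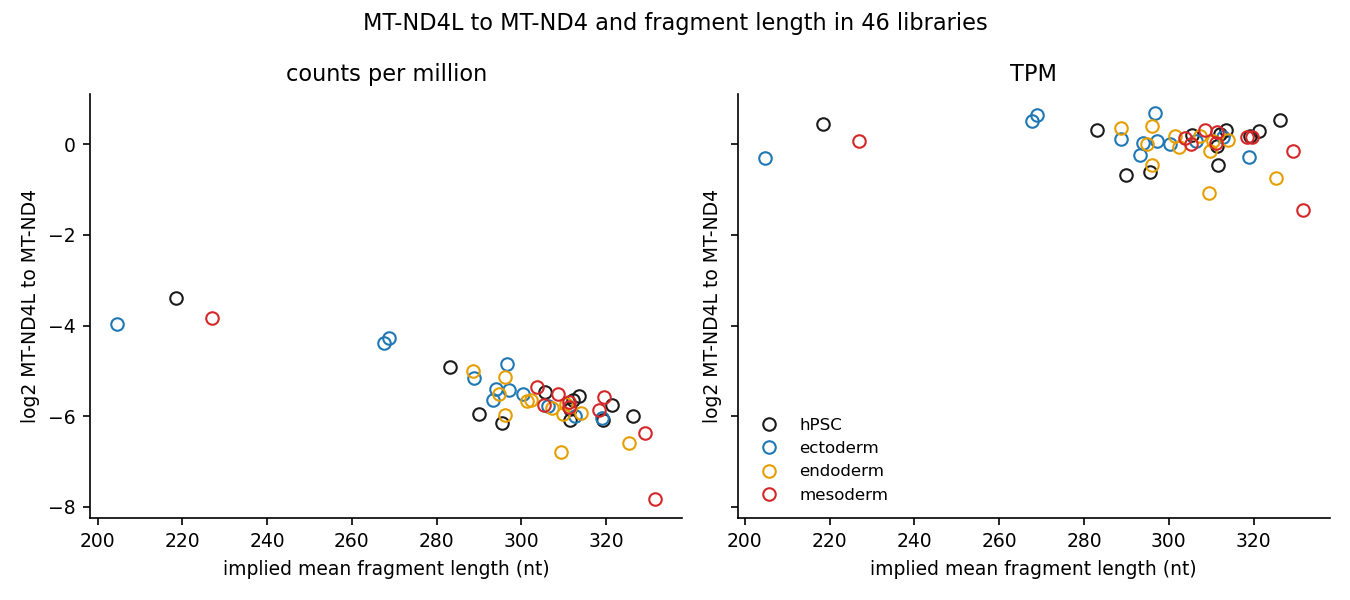
Log2 ratio of MT-ND4L to MT-ND4 against the mean fragment length implied by the deposited counts and TPM, with 1 open circle per library and colours for cell types; CPM on the left and TPM on the right. The 3 libraries under 250 nt stand above the rest in CPM and lie among them in TPM.

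Most nuclear-encoded accessory partners of these subunits had higher mRNA levels in cytoplasm in hPSC, endoderm and mesoderm. Complex I takes its other core subunits and its accessory subunits from nuclear genes whose mRNAs are translated in the cytosol. In hPSC, 6 of 7 core and 26 of 30 accessory subunit mRNAs were higher in cytoplasm than in nucleus, and 0 and 1 were lower, with medians of 0.87 and 1.24. Among all genes 35% were called higher in cytoplasm in hPSC. For NDUFAB1, the acyl carrier protein of the complex, the log2 change was 1.42 (SE 0.25, adjusted p 2.29e-04). In endoderm 19 of 30 accessory mRNAs were higher and 2 lower, with 3 core subunits higher and 1 lower, against 34.3% of all genes called higher. In ectoderm 4 accessory mRNAs were higher and 5 lower, with 1 core subunit higher and 1 lower, against 27.2%. In mesoderm 28 accessory mRNAs were higher and 0 lower, with 3 core subunits higher and 1 lower, against the 31.8% given above.

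Against hPSC in cytoplasm most nuclear subunits were lower, while the mitochondrial ones were higher in ectoderm and mesoderm. Of 30 accessory subunit mRNAs, 20 were lower and 1 higher in ectoderm, 19 lower in endoderm and 17 lower in mesoderm, with medians of -0.76, -0.59 and -0.67. Of the 7 core subunits, 6 were lower in ectoderm, 6 in endoderm and 7 in mesoderm, and 0 were higher in any. Among all genes 37% were called lower in ectoderm, 32.2% in endoderm and 33% in mesoderm, with all-gene medians of 0.04, -0.05 and 0.01. The members' medians were 1.80, -0.49 and 4.07.

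Other mitochondrial RNAs were counted over the same fractions. All 8 on the list (MT-CO1, MT-CO2, MT-CO3, MT-ATP6, MT-ATP8, MT-CYB and the ribosomal RNAs MT-RNR1 and MT-RNR2) were lower in cytoplasm in hPSC, ectoderm and endoderm and higher in mesoderm, with a median of 2.88 there. The mRNAs of 8 chaperones and folding enzymes of the endoplasmic reticulum, which are translated at that membrane, were lower in cytoplasm in all 4 cell types, 8 of 8 in each. The share of all genes called lower in cytoplasm came to 30.3% for hPSC and 26.5% for ectoderm, and to 35.4% for endoderm and 31.4% for mesoderm, where 31.8% were called higher. The medians of these folding genes ran from -3.52 in endoderm to -1.99 in ectoderm, with -2.58 in mesoderm. In mesoderm HSPA5, an abundant chaperone of that organelle, was lower in cytoplasm on the log2 scale, at -3.35 (SE 0.30, adjusted p 5.16e-06).

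Across all 46 libraries the genes most like the mean of the members in log2(CPM + 1) were mitochondrial: MT-CO1 (Pearson's r 0.99), MT-ATP6 (0.98), MT-CO3 (0.97), MT-RNR2 (0.97) and MT-CO2 (0.97). These values describe libraries that fall into fractions and cell types, are not independent and carry no test. The closest genes outside the mitochondrial genome were ALG9 (0.78), F2RL1 (0.76), PCDHGB5 (0.75), IGSF1 (0.75) and SRPRB (0.72). Among the members, MT-ND5 (0.93) and MT-ND4L (0.94) were the least like the mean of the other 6, and MT-ND2 (0.99) the most. The 36 nuclear complex I subunits measured had a median r of -0.22, and all 9176 genes compared had -0.22. Nuclear copies of the members, whose reads can be confused with theirs, were listed as MTND1P9 in hPSC with 0 to 6 counts per library and as MTND2P28 in mesoderm with 6 to 270.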

How the data were processed

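The 10 deposited tables hold, per the file headers, transcript rows with gene names from 1 transcript assembly per cell type and 1 combined assembly. The authors' count tables and TPM tables were made with RSEM and STAR on hg38, per the submitters' processing notes; versions and counting options are not given in the sources used here. In 2 tables a column that belongs to no sample in the labels was not used (2 columns in all).

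Counts were summed per Ensembl gene, or per assembled locus where no Ensembl gene was listed, and symbols were attached afterwards. The sums were tested with edgeR 4.0.16 (quasi-likelihood, TMM scaling, filterByExpr with a minimum count of 10) in R 4.3.3. All libraries of a cell type were in 1 fit, or all 4 cell types over their 10707 shared genes. P-values were Benjamini-Hochberg adjusted over all genes tested. DESeq2 1.42.0, limma 3.58.1 on log2(TPM + 1), other scalings, a replicate block and each library left out in turn were the alternatives. CPM used library totals. Ratios used Python 3.11.15 with numpy 2.4.6 and pandas 2.3.3. On simulated counts, the edgeR step recovered 18 to 64% of genes changed by 1 on the log2 scale, over 8 simulated comparisons. Of genes changed by 2 it recovered 92 to 100.0%. Every simulated gene had the same fixed dispersion, so these rates do not describe groups of libraries with a wider spread.

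All 7 members are named in every comparison. The likeness rule took the 5 mitochondrial and 5 other genes with the highest r among genes with a mean of at least 10 CPM. The members and lists were chosen with earlier results of these data known. Replicate numbers were not treated as pairs: correlations of same-numbered libraries ran from -0.43 to 0.29. By mean correlation, 8 of 12 hPSC libraries were most like those of their own number. It was 4 of 12 in ectoderm, 1 of 12 in endoderm and 0 of 9 in mesoderm. Among 45 replicate pairs 0 held identical values. Library totals limit the counts, and these errors cover spread between libraries.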

Additional observations from a re-analysis of the deposited data

Results flagged for a closer look

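The cytoplasm against nucleus change differed from that in hPSC, by edgeR's interaction test, in 5 members in ectoderm and 7 in mesoderm. The values are log2 differences, positive where the cytoplasm held relatively more than in hPSC, and both sets share the hPSC libraries. In ectoderm they were MT-ND1 1.81 (SE 0.45, adjusted p 0.00216), MT-ND2 1.81 (SE 0.49, adjusted p 0.00387), MT-ND4 1.70 (SE 0.48, adjusted p 0.00501), MT-ND5 2.90 (SE 0.41, adjusted p 9.87e-06) and MT-ND6 2.37 (SE 0.51, adjusted p 6.19e-04). In mesoderm the pump subunits had MT-ND2 8.23 (SE 0.55, adjusted p 3.19e-10), MT-ND4 7.41 (SE 0.53, adjusted p 8.03e-10) and MT-ND5 6.62 (SE 0.43, adjusted p 2.47e-10). The quinone-site subunit had MT-ND1 8.08 (SE 0.51, adjusted p 1.68e-10), and the small membrane subunits had MT-ND3 9.03 (SE 0.95, adjusted p 9.41e-07), MT-ND4L 8.56 (SE 1.07, adjusted p 1.23e-05) and MT-ND6 7.20 (SE 0.55, adjusted p 3.59e-09). MT-ND5 had the largest value in ectoderm and the smallest in mesoderm. Mesoderm cytoplasm replicate 2, which enters the mesoderm values, was a library of short fragments. On log2(TPM + 1) limma gave 7.89 for MT-ND3, still the largest in mesoderm, and 7.16 for MT-ND4L. Beside the ectoderm values, 4 of 5 nuclear control RNAs were higher in the ectoderm cytoplasm than in its nucleus, and 3 of 5 cytoplasmic control mRNAs were lower. Their part in the result was not tested. In mesoderm 5 of 5 cytoplasmic controls were higher in cytoplasm and 3 of 4 nuclear controls tested were lower.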

How the results depend on the processing

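Of 2802 single-member values under the alternatives, 2667 stayed on the same side of the threshold, 67 gained a call, 60 lost one and 5 reversed. A change of sign was counted as reversed only where either fit made a call. The 2667 therefore include changes of sign without a call, as in the endoderm nucleus against hPSC on TPM. The other 3 are MT-ND6 on chromatin against hPSC, for which DESeq2 gave no adjusted p. With library totals alone, 5 members were called in ectoderm chromatin against cytoplasm, 0 in endoderm against hPSC in cytoplasm, and 1 each in ectoderm nucleus, ectoderm chromatin and mesoderm chromatin against hPSC. TMM without mitochondrial genes, and no filter on low counts, each gave 1 in ectoderm chromatin and 1 in mesoderm chromatin against hPSC. On log2(TPM + 1) the counts were 7 in ectoderm chromatin against cytoplasm, 3 in mesoderm cytoplasm against nucleus, 1 in mesoderm chromatin against cytoplasm, 0 in endoderm cytoplasm, 4 in ectoderm nucleus, 1 in endoderm nucleus and 4 in mesoderm chromatin, the last 4 against hPSC. DESeq2 called 1 for the endoderm difference of changes. The replicate block gave 5 in mesoderm chromatin against cytoplasm and 2 in mesoderm chromatin against hPSC, and moved no other of the 32 counts by over 1.5 times; the replicate numbers were not shown to pair the libraries. With the geometric mean of the other members as reference, 4 ratios passed in ectoderm, 2 in endoderm and 2 in mesoderm against hPSC. TPM gave 1 in endoderm, and leaving out mesoderm chromatin replicate 3 gave 1 in mesoderm.

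The reversed values were MT-ND4L in ectoderm chromatin against cytoplasm on TPM at 1.68, MT-ND5 in mesoderm cytoplasm against nucleus on TPM without mesoderm chromatin replicate 3 at -0.96, and MT-ND3 in ectoderm nucleus against hPSC on TPM at -0.86. With the geometric mean as reference, the ectoderm ratios of MT-ND2 and MT-ND4 were -0.40 and -0.42. The cause was not tested.

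Libraries were left out only from the groups compared. Leaving out 1 library at a time gave 2 to 5 calls in ectoderm and 1 to 7 in mesoderm for chromatin against cytoplasm. For mesoderm cytoplasm against nucleus it gave 5 to 6, and for ectoderm nucleoplasm against cytoplasm 6 to 7. For ectoderm against hPSC it gave 5 to 7 in cytoplasm and 5 to 6 for the difference of changes. Against hPSC it gave 0 to 1 in ectoderm nucleus, 0 to 1 in ectoderm chromatin, 2 to 6 in endoderm chromatin, 0 to 7 in mesoderm chromatin and 0 to 2 for the endoderm difference of changes. Leaving out a replicate number, cell type or fraction gave 1 to 4 ratios for cytoplasm against nucleus, 0 to 1 for nucleus against chromatin, 0 to 2 for ectoderm and 0 to 2 for endoderm. Library totals alone moved the median of all genes by over 0.1 in 19 of 26 comparisons, by -0.74 to 0.70 on the log2 scale. Strand use is not given for these counts.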

Other observations

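The nuclear genes that transcribe and process mitochondrial RNA were mostly lower in ectoderm and mesoderm cytoplasm than in hPSC cytoplasm. The endoderm counts of this list are not given here, and a link to the members' levels was not tested. Of 20 tested, including the polymerase POLRMT and the stability factor LRPPRC, 17 were lower and 0 higher in ectoderm, and 18 were lower and 0 higher in mesoderm. POLRMT had log2 changes of -0.54 (SE 0.12, adjusted p 6.81e-04) and -0.88 (SE 0.12, adjusted p 1.26e-05) in edgeR, and LRPPRC -0.31 (SE 0.15, adjusted p 0.0682) and -0.47 (SE 0.15, adjusted p 0.0108). Of 16 complex I assembly factors, which build the enzyme but are not part of it, 13 were lower in ectoderm, 14 in endoderm and 8 in mesoderm, and 1 was higher in mesoderm. For comparison, 37% of all genes were called lower in ectoderm, 32.2% in endoderm and 33% in mesoderm, with all-gene medians of 0.04, -0.05 and 0.01. The medians of the RNA-handling list were -0.77 in ectoderm and -0.62 in mesoderm. In ectoderm, endoderm and mesoderm the medians of the assembly factors were -1.06, -0.70 and -0.63.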
